A study of Rattus norvegicus with 6 samples.

Results

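The genes described here encode 9 proteins of the tight junction and of apical polarity: the scaffolds Tjp1 and Tjp3, the scaffold-linked proteins Cgn and Cgnl1, the membrane proteins Ocln, Marveld2, Marveld3 and F11r, and the polarity protein Crb3. They were chosen as named genes, each being the single symbol of a probe set in the platform annotation, and all 9 were found among the 18166 genes measured, with 1 probe set each. Levels were measured on 6 arrays of NRK-52E cells, an established epithelial line from rat kidney tubule, of which 3 were control cells and 3 carried an overexpressed intracellular domain of Notch1 (NICD1), delivered with the pINDUCER21 vector system. All cells were grown in the same serum-containing medium; the labels name no vector for the control cells, no inducer and no clone. Nor do they tell whether replicates came from separate cultures, so the p-values cover only the spread between arrays, which may be technical.

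Tight junctions seal the space between neighbouring epithelial cells near the apical surface and separate apical from basolateral membrane. Strands of claudins, joined by occludin and its relatives with the four-pass MARVEL fold, are held by PDZ-domain scaffolds of the zonula occludens family. These scaffolds tie the strands to actin and to cytoplasmic proteins such as cingulin. The Crumbs, Par and Scribble complexes set the apical, junctional and lateral domains, and in kidney tubules these junctions determine which ions and solutes cross between cells. Cleaved Notch acts in the nucleus with the DNA-binding protein RBPJ, and its targets include the Hey family of repressors.

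Of the 9 genes, 4 fell in NICD1 cells and 0 rose, where 7.22% of all 18166 genes fell, 7.45% rose and 14.7% changed in either direction (limma, Benjamini-Hochberg adjusted p under 0.05). The 4 were Cgnl1, Cgn, F11r and Tjp1. Cgnl1 fell the most, by 0.87 on the log2 scale, and the other 3 fell by 0.26 to 0.31. Tjp3, Ocln, Marveld2, Marveld3 and Crb3 had differences of 0.00 to 0.05 and did not pass. At an unadjusted p under 0.05 in limma's test, 0 of the 9 were higher, against 2516 of all 18166 genes. The median difference over the 9 genes was 0.00, against 0.01 over all genes. These genes were listed with earlier results of the same arrays known, so their count is a description and not independent evidence of a direction.

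The upstream sequences of the 4 genes that fell are printed here because those genes share a direction, and that of Ocln because its level did not pass and its promoter holds a motif that F11r also holds. Each is the 250 bases before the annotated start in RefSeq on GRCr8, read 5′ to 3′ on the gene's strand. Of the 9 genes, 8 matched an entry of that table by gene identifier. Only the first matching entry of each gene was used, so any other start was not searched. Whether these cells use the start taken is not known. Capitals mark matches, on either strand, to 3 motifs: TGGGAA, the core bound by RBPJ; CACGTG, an E-box of the kind bound by Hey proteins; and CAGGTG, an E-box of the kind bound by Snail and ZEB repressors. The windows lie at chr8:81305598-81305847 (minus strand), chr2:185023636-185023885 (minus strand), chr13:86405979-86406228 (plus strand), chr1:128325361-128325610 (minus strand) and chr2:33441199-33441448 (minus strand).
Cgnl1: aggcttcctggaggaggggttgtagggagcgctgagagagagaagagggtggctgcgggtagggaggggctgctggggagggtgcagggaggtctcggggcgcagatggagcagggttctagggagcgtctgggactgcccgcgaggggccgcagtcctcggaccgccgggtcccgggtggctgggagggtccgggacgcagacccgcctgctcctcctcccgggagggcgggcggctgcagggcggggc
Cgn: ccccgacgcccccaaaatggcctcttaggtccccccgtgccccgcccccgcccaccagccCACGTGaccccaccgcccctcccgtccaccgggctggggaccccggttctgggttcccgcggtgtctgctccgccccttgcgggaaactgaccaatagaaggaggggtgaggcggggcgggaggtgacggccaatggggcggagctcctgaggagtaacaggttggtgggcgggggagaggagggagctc
F11r: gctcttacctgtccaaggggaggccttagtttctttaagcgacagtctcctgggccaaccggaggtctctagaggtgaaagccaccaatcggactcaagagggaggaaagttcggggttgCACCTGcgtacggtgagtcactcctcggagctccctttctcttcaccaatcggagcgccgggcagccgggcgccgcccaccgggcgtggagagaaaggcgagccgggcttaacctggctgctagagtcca
Tjp1: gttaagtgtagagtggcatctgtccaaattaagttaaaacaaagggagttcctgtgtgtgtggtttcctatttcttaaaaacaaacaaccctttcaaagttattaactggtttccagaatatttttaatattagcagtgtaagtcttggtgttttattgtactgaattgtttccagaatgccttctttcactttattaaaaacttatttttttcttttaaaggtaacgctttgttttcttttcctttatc
Ocln: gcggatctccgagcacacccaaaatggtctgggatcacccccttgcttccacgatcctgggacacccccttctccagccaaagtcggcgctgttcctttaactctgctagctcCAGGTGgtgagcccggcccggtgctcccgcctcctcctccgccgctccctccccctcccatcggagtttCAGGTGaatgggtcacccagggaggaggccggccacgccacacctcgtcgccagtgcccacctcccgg

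Among the 4 genes that fell, 2 had a match and they were to different motifs. Cgn held 1 match to CACGTG, from 190 to 185 bases before the start. F11r held 1 match to CAGGTG, read on the opposite strand as CACCTG, from 130 to 125 bases before the start. None of the 3 motifs was found in the windows of Cgnl1 or Tjp1. Of the 4 matched genes that did not pass, each held at least 1 motif: Ocln held CAGGTG 2 times, Crb3 held CAGGTG 3 times and CACGTG 1 time, Tjp3 held CAGGTG and TGGGAA 1 time each, and Marveld2 held TGGGAA 1 time. Over the 33469 windows of the same length in the table, 22.1% held TGGGAA, 5.59% held CACGTG and 15.9% held CAGGTG. The windows of Cgnl1 and Cgn were rich in G and C, at 73.6% and 71.6%, and that of Tjp1 was poor in them, at 30.4%, against a median of 51.2% over all windows.

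**Figure D1:**
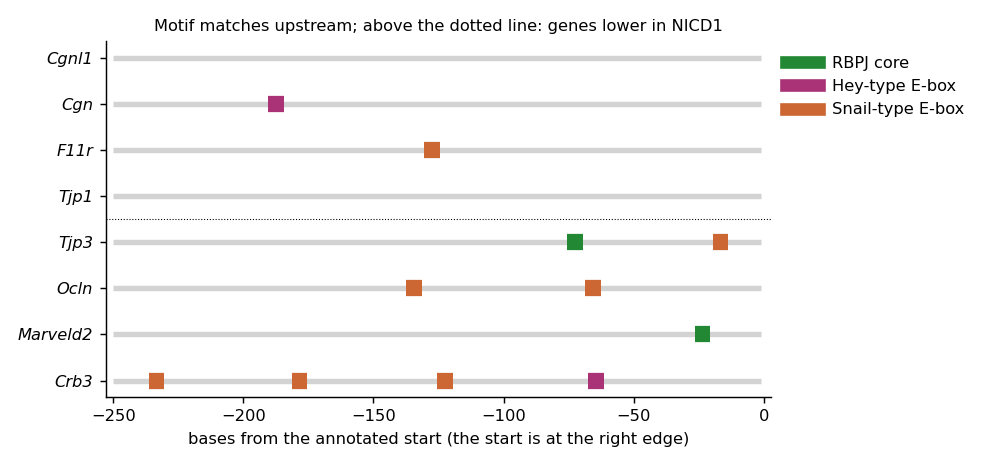
Matches to the RBPJ core, the Hey-type E-box and the Snail-type E-box in the 250 bases before the annotated start of 8 genes, with distance from the start on the horizontal axis. The windows of Cgnl1 and Tjp1 hold no match, and Crb3 holds the most, 4 in all.

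The labels were checked first with Notch1 and its targets. Notch1 measured 8.66, 8.39 and 8.51 log2 intensity on the control arrays and 9.15, 9.12 and 9.26 on the NICD1 arrays, and rose by 0.66 (SE 0.081, limma adjusted p = 0.00181). Hey1 rose by 3.42 and Hey2 by 2.58, both on every NICD1 array, in the direction of the labels. Control replicate 1 stood apart on the second principal component, at 16.15 against -7.35 and -8.99 for the other controls, and without it Cgnl1, Tjp1 and F11r still fell (limma adjusted p = 0.00243, 0.0246 and 0.0354) while Cgn did not pass (0.1). The epithelial identity of the line showed only in part. Of 14 tubule epithelium markers, 5 lay above a background level of 5.74 in at least 1 group. In control, the keratin Krt8 lay at 10.36 and Aqp1 at 6.84, while Krt19, Pax2 and Muc1 exceeded background by only 0.19 to 0.24. The other 9 lay below it in both groups. They included E-cadherin (Cdh1, 5.42 in control and 5.37 in NICD1), Epcam (3.08 and 3.11) and the keratin Krt18 (4.25 and 4.44). The background is the 95th percentile of the mean level of 1397 chemosensory receptor genes, taken as genes with little or no transcription in this line.

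Tjp1 encodes ZO-1, the scaffold that binds claudins, occludin and F11r through separate domains and links them to actin. Its levels on control replicates 1 to 3 were 12.02, 12.05 and 12.09, and on NICD1 replicates 1 to 3 they were 11.76, 11.83 and 11.81. Every control array lay above every NICD1 array, and the groups were separated by 0.26 on the log2 scale, 1.19-fold. That fall had an SE of 0.052 and a 95% confidence interval of -0.38 to -0.13 (limma adjusted p = 0.0175). The call ended when any array except control replicate 1 was left out, with limma adjusted p from 0.0515 without NICD1 replicate 2 to 0.0713 without NICD1 replicate 1, while the fall itself ranged from -0.27 to -0.23 in those fits.

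Tjp3 encodes ZO-3, a relative of ZO-1 with the same domain order that is found mainly in epithelia. It measured 7.19, 7.15 and 7.09 on the control arrays and 7.20, 7.22 and 7.04 on the NICD1 arrays, so the groups overlapped. The difference was 0.01 (SE 0.067, 95% confidence interval -0.15 to 0.17, limma adjusted p = 0.965). That interval does not hold the estimate for Tjp1, -0.26, nor a rise of that size. It does overlap the interval of Tjp1, -0.38 to -0.13.

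Cgn encodes cingulin, a coiled-coil protein of the junction's cytoplasmic face that binds ZO-1 and holds back the RhoA activator encoded by Arhgef2. It measured 7.90, 7.75 and 7.97 on the control arrays and 7.58, 7.46 and 7.65 on the NICD1 arrays. The lowest control array, replicate 2, still lay above the highest NICD1 array, replicate 3. Cgn fell by 0.31 (SE 0.080, 95% confidence interval -0.50 to -0.12, limma adjusted p = 0.0414), 1.24-fold. The call ended when any array except control replicate 2 was left out, with limma adjusted p from 0.0546 without NICD1 replicate 3 to 0.126 without NICD1 replicate 2, and with falls between -0.36 and -0.26.

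Cgnl1 encodes paracingulin, the close relative of cingulin that is found at both tight and adherens junctions and binds regulators of RhoA and Rac1. Its levels were 8.67, 8.49 and 8.65 in control and 7.72, 7.65 and 7.83 in NICD1 cells. The gap between the lowest control array and the highest NICD1 array was wider than the spread within either group. Cgnl1 fell by 0.87 (SE 0.074, 95% confidence interval -1.05 to -0.70, limma adjusted p = 0.00031), 1.83-fold, and 155 of the 18166 genes had a larger fall. Its adjusted p ranged from 1.81e-06 to 0.00243 over 13 other settings, and in all of them the call was kept.

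F11r encodes JAM-A, an immunoglobulin-type adhesion receptor of the junction that binds the PDZ domains of ZO-1 and Par-3. It measured 10.05, 10.00 and 9.90 on the control arrays and 9.67, 9.72 and 9.68 on the NICD1 arrays. The groups did not overlap, and the NICD1 arrays lay closer to each other (SD 0.03) than the control arrays did (SD 0.07). F11r fell by 0.29 (SE 0.058, 95% confidence interval -0.43 to -0.16, limma adjusted p = 0.0151), 1.22-fold. The call ended without control replicate 2 (limma adjusted p = 0.0558), without NICD1 replicate 1 (0.0595) and without NICD1 replicate 3 (0.0579).

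The 3 proteins of the MARVEL family, occludin, tricellulin and the protein encoded by Marveld3, are the four-pass membrane proteins that run beside claudins in the strands. Ocln, occludin, measured 8.26, 8.26 and 8.28 in control and 8.21, 8.36 and 8.25 in NICD1 cells, with a difference of 0.01 (SE 0.058, 95% confidence interval -0.13 to 0.14, limma adjusted p = 0.957). The control arrays agreed to within an SD of 0.01, and the NICD1 arrays lay on both sides of them. Marveld2 encodes tricellulin, which seals the points where the corners of cells meet. It measured 5.13, 5.17 and 5.13 in control and 5.20, 5.26 and 5.10 in NICD1 cells, below background in both groups, so it has no interpretable level here. Marveld3 measured 5.94, 5.78 and 5.73 in control and 5.78, 5.82 and 6.00 in NICD1 cells, means that exceed background by 0.08 and 0.13. Neither passed (Marveld2 difference 0.04, limma adjusted p = 0.719; Marveld3 difference 0.05, 0.777).

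Crb3 encodes the short Crumbs protein of epithelia, whose cytoplasmic tail binds Pals1 and Par-6 and so anchors the apical complex. It measured 5.75, 5.83 and 5.68 in control and 5.79, 5.78 and 5.70 in NICD1 cells, means that lay 0.02 above background in both groups. The groups overlapped and the difference was 0.00 (SE 0.061, 95% confidence interval -0.14 to 0.15, limma adjusted p = 0.976). At a level so close to background, an absent transcript and an unchanged one cannot be told apart.

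**Figure D2:**
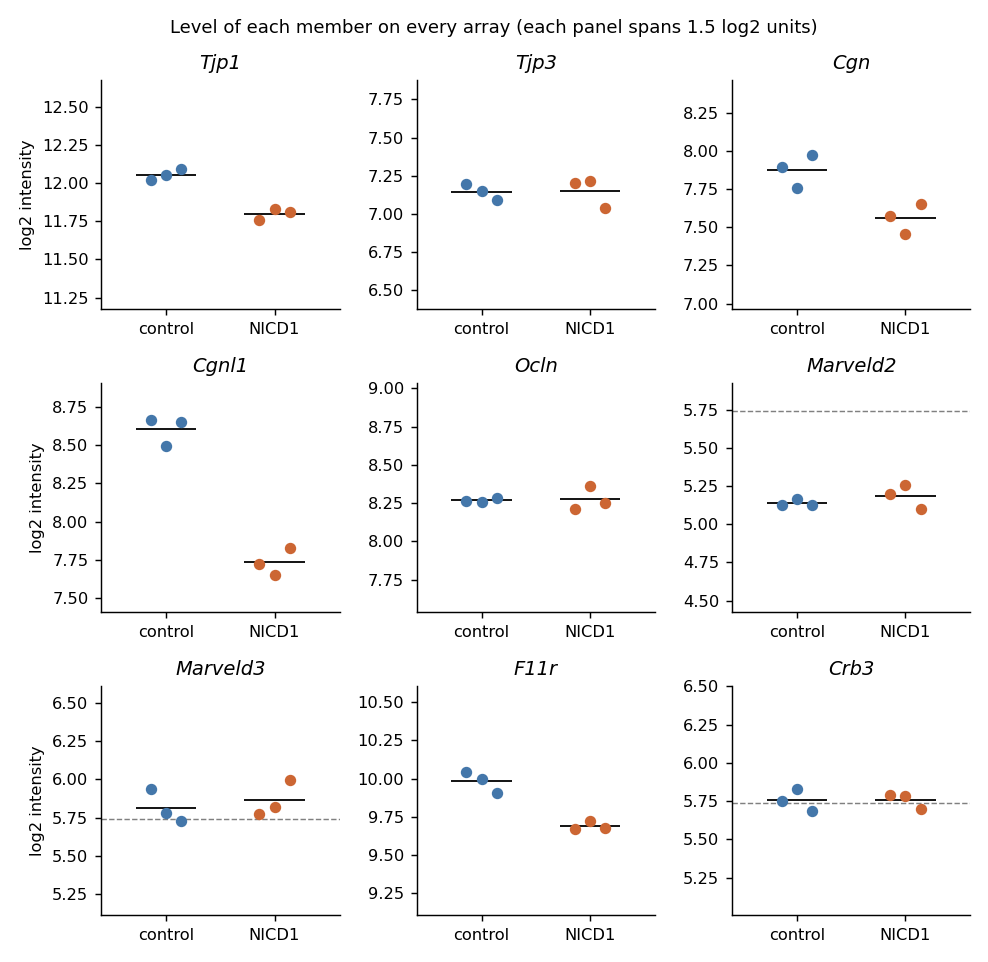
Log2 intensity of the 9 genes on every array, 3 control and 3 NICD1, with a black line at each group mean and a dashed line at the background of 5.74 where it falls in the panel. Each panel spans the same number of log2 units. Tjp1, Cgn, Cgnl1 and F11r have every control array above every NICD1 array, and the other genes overlap.

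Counted by arrays alone, all 3 controls lay above all 3 NICD1 arrays for 4 of the 9 genes, against 15.7% of all genes. The reverse order was seen for 0 of the 9, against 3086 of all 18166 genes. The 4 were the genes that passed. Among the 5 that did not, Tjp3 and Ocln lay 1.41 and 2.53 above background in control, Marveld3 and Crb3 lay within 0.13 of it, and Marveld2 lay below it. Cgn and Cgnl1 were each lowest on replicate 2 within both groups, which is given as a description over 6 arrays that were normalised together.

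**Figure D3:**
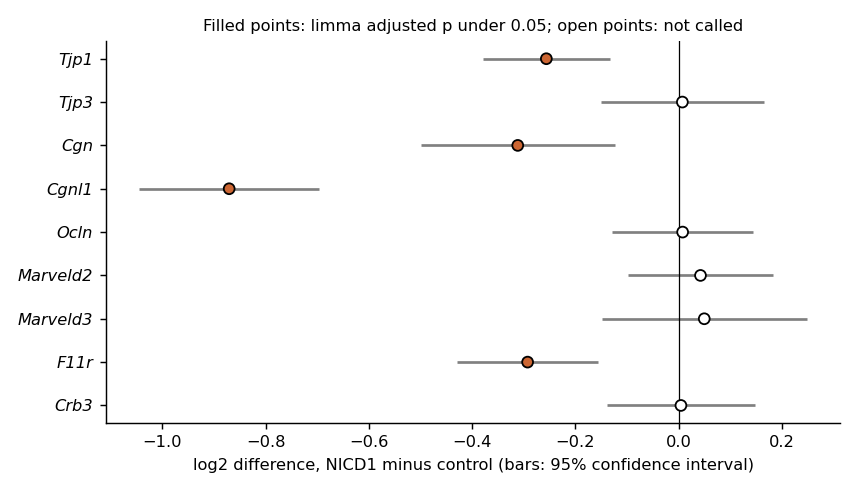
Log2 difference of each gene, NICD1 minus control, with its 95% confidence interval from the limma fit on 3 arrays a group; filled points passed at an adjusted p under 0.05. The intervals of Tjp1, Cgn, Cgnl1 and F11r lie below 0, that of Cgnl1 (-1.05 to -0.70) the farthest, and those of the other 5 genes include 0.

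Related genes were compared directly within each array. Cgn minus Cgnl1 was -0.77, -0.74 and -0.68 on the control arrays and -0.15, -0.19 and -0.17 on the NICD1 arrays, so the distance between the probe sets changed by 0.56, with no overlap. Tjp1 minus Tjp3 was 4.82, 4.90 and 5.00 in control and 4.56, 4.61 and 4.77 in NICD1 cells, a change of -0.26, also with no overlap. For Marveld2 minus Marveld3 the groups overlapped and the change was -0.01. The two-sided exact permutation p was 0.1 for each of the first 2 pairs, the smallest that 3 arrays against 3 allow, and 1 for the third; adjusted over the 3 pairs these were 0.15, 0.15 and 1. The design therefore cannot pass this test, and a different fall of Cgnl1 and Cgn is given by the non-overlapping values alone.

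Claudins, which form the strands that these scaffolds hold, changed in both directions. Among 23 with a value, 2 fell, 2 rose and 19 missed the threshold (17.4% called, near the 14.7% of all genes). Of the 23, 12 lay below background in both groups. All 4 called were among the 11 above it in at least 1 group, where 2485 of 11410 genes of the series were called. Cldn25 was above it only in NICD1 cells and so counts among the 11 through its rise. The comparison of these shares is therefore a description only. Cldn15, a pore-forming claudin, measured 8.98 to 9.20 on the control arrays and 8.30 to 8.34 on the NICD1 arrays and fell by 0.75 (SE 0.073, limma adjusted p = 0.000579). Cldn12 fell by 0.27 (SE 0.064), and that call ended without any array except control replicate 1, with limma adjusted p up to 0.0993 without NICD1 replicate 2. Cldn19, known from the thick ascending limb, rose by 2.87 (SE 0.232), from 6.35, 5.72 and 5.34 to 8.73, 8.54 and 8.74. On 2 of the 3 control arrays it lay below background, and its control mean was 0.07 above it, so the size of the rise is not well measured. Cldn25 rose by 0.23 (SE 0.051) from below background to 5.83, a call that ended without any array except control replicate 1 (limma adjusted p up to 0.0952, without NICD1 replicate 1) and with an intensity trend (0.0968).

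Among other membrane proteins of the junction, 1 of 8 measured fell and 1 rose (25% called, against 14.7% of all genes). Cxadr, the coxsackievirus and adenovirus receptor and an adhesion protein that binds ZO-1, fell by 0.56 (SE 0.056, limma adjusted p = 0.000614), from 12.06, 12.01 and 11.93 to 11.44, 11.44 and 11.43. Lsr, the angulin that recruits tricellulin to tricellular contacts, rose by 0.62 (SE 0.053, limma adjusted p = 0.000319), from 10.92, 10.91 and 10.83 to 11.54, 11.51 and 11.47. Jam3, a relative of F11r, had a value of 0.11 and did not pass.

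Of 13 other scaffolds and cytoplasmic junction proteins measured, 1 fell and 0 rose, and the 7.69% called lay below the 14.7% of all genes. At an unadjusted p under 0.05, 4 of the 13 were lower and 2 higher in limma's test, against 2345 lower and 2516 higher of all 18166 genes. The gene that fell was Magi3, a PDZ scaffold of the MAGUK type, by 0.72 (SE 0.057, limma adjusted p = 0.000229), from 10.79, 10.66 and 10.69 to 9.99, 10.03 and 9.96. The genes whose products bind cingulin or ZO-1, Arhgef2 (0.16) and Ybx3 (0.09), did not pass. With an intensity trend, the list had 2 falls and 1 rise, and without the dimmest genes it had 1 rise.

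Genes of the polarity complexes changed in both directions. Among 24 with a value, 5 fell, 2 rose and 17 missed the threshold (29.2% called, against 14.7% of all genes), with a median difference of -0.04 (0.01 over all genes). Llgl2, the lateral-domain partner of the Scribble complex in epithelia, measured 9.18, 8.83 and 8.91 in control and 7.88, 7.90 and 7.99 in NICD1 cells. It fell by 1.05 (SE 0.095, limma adjusted p = 0.000403), 2.07-fold. Prkcz, an atypical protein kinase C of the Par complex, fell by 0.64 (SE 0.054), from 8.42, 8.34 and 8.32 to 7.69, 7.75 and 7.72, while its relative Prkci had a value of -0.10 and did not pass.

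The 2 polarity genes that rose act with or beside Crb3, and both lay well above background. Pals1, which binds the tail of Crb3, rose by 0.43 (SE 0.057, limma adjusted p = 0.0026), from 9.60, 9.75 and 9.69 to 10.09, 10.12 and 10.12. Crb2, a Crumbs relative, rose by 0.36 (SE 0.055, limma adjusted p = 0.00489), from 9.91, 9.82 and 9.79 to 10.19, 10.23 and 10.18. The smaller falls were those of Lin7c (-0.31), which binds Pals1, and of the Par-6 genes Pard6g (-0.26) and Pard6b (-0.24), the last outside the rule for named genes and chosen after its value was seen. Those calls were weak: that of Pard6b ended without any 1 array (limma adjusted p up to 0.128), that of Lin7c without any except control replicate 1 (up to 0.085) and that of Pard6g without control replicates 2 or 3 or NICD1 replicates 1 or 2 (up to 0.0964). The list held 4 falls without control replicate 1, 3 without NICD1 replicate 3 and 2 without any other single array.

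**Figure D4:**
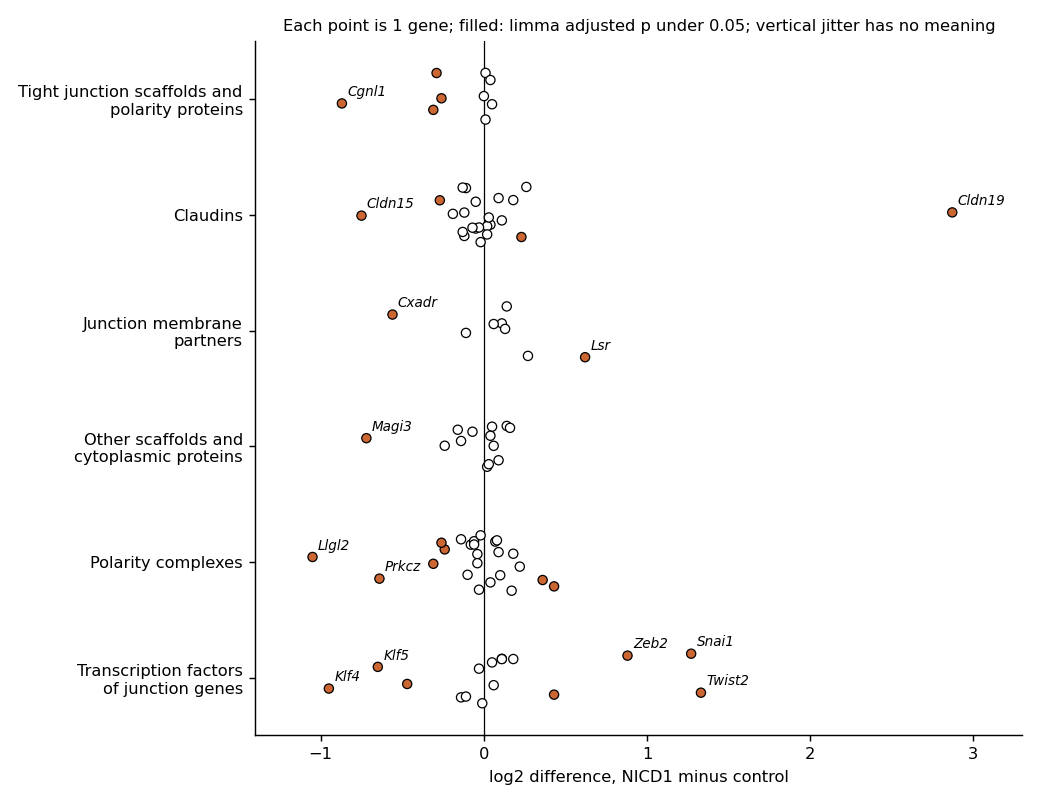
Log2 difference, NICD1 minus control, of each gene in the group of 9 and in 5 related lists, with filled points for limma adjusted p under 0.05 and names on called genes that differ by at least 0.5. Llgl2 at -1.05 and Cgnl1 at -0.87 are the lowest junction or polarity genes, and Cldn19 at 2.87 lies apart from all others.

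Transcription factors known to act on junction genes were given for their values only. Among 16 with a value, 4 rose, 3 fell and 9 missed the threshold (43.8% called, against 14.7% of all genes). The repressors Snai1, Zeb2 and Twist2 rose by 1.27 (SE 0.085), 0.88 (SE 0.110) and 1.33 (SE 0.091), Snai1 from 6.27, 5.99 and 6.07 to 7.33, 7.46 and 7.35. The control mean of Zeb2 lay below background (5.65), so the size of its rise is not well measured. Grhl1, a grainyhead factor of epithelia, rose by 0.43 (SE 0.065). Klf4 and Klf5, factors of epithelial differentiation and growth, fell by 0.95 (SE 0.052) and 0.65 (SE 0.064), and Tfcp2l1, named after its value was seen, fell by 0.47 (SE 0.104), a call that ended without any 1 of the controls (limma adjusted p from 0.0673 to 0.0784). Zeb1 (0.18) and Grhl2 (0.11, below background in both groups) did not pass. Whether any of these factors acts on the 9 genes was not tested.

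Cell types other than tubule epithelium were checked through their markers. Of 10 fibroblast and pericyte markers 2 rose (20% called, against 14.7% of all genes), Col1a1 (0.90) and Col3a1 (0.46). Pdgfrb, also above background, was lower on every NICD1 array (-0.24) and did not pass (limma adjusted p = 0.104). The mean level of the fibroblast and pericyte list was 5.96 to 6.04 in control and 6.17 on every NICD1 array, with Dcn and Lum below background. Of 7 endothelial markers 1 fell, Tek (-0.57), or 14.3%. Of 8 leukocyte markers 1 rose, Cd68 (0.27), or 12.5%, and both shares were near the 14.7% of all genes. Above background were 2 endothelial markers, Tek and Egfl7, and 2 leukocyte markers, Cd68 and Cd79a. The others, Ptprc among them, lay below it in both groups. The mean of the tubule epithelium markers was 5.50 to 5.64 in control and 5.66 to 5.70 in NICD1 cells, and of its genes Krt8 alone passed, with a rise of 1.08. The part of these differences in the falls of Cgnl1, Cgn, F11r and Tjp1 was not tested, and a lower share of cells with a transcript and less of it per cell cannot be told apart in bulk RNA.

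**Figure D5:**
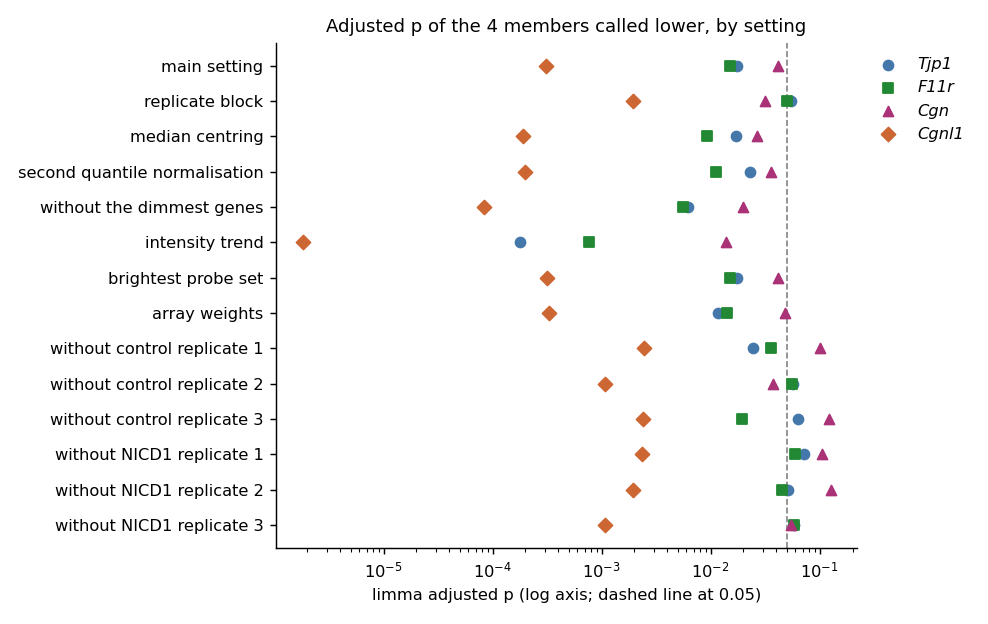
Limma adjusted p, on a log axis, of the 4 genes that fell, in the main setting and 13 other settings, with a dashed line at 0.05. Cgnl1 stays between 1.81e-06 and 0.00243, while Tjp1, F11r and Cgn pass the line when single arrays are left out.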

How the data were processed

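Total RNA of 6 NRK-52E samples was made into biotin-labelled cDNA with Affymetrix kits for whole transcripts, per the labels. The authors deposited 1 intensity per probe set and array, computed by RMA in Affymetrix Expression Console according to the submitters' processing notes. RMA subtracts background and forces the arrays to 1 distribution, which removes any shift common to most transcripts. Software versions and the genome build are not stated in the sources used. The intensities are linear (array medians 57.5 to 60.1), so log2 was taken without a pseudocount. Of 36685 probe sets, the 18511 with 1 symbol were averaged per symbol to 18166 genes, and probe sets with several symbols or none were not used.

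Groups were compared with limma 3.58.1 (R 4.3.3; lmFit, eBayes, group as the only term, two-sided), with Benjamini-Hochberg adjustment over all genes and a threshold of 0.05. Confidence intervals use the moderated SE. Pairs of related genes were compared by an exact permutation over 20 arrangements. Scripts were tested on simulated data. The members, the related lists and the tests were chosen with earlier results of these data known. Named genes were all 9 members, up to 6 called genes of each related list by p, and Notch1, Hey1 and Hey2; other list members are examples. Alternatives were the replicate block, 2 scalings, a filter, a variance trend, the brightest probe set, array weights, a threshold of 0.01 and leaving out each array. Promoter windows came from RefSeq (GRCr8). Figures used matplotlib 3.10.9. The number of arrays, 3 a group, limits the precision.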

Additional observations from a re-analysis of the deposited data

How the results depend on the processing

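Of the 9 genes, the 4 falls became 1 to 2 when single arrays other than control replicate 1 were left out (3 without that array), and 1 at an adjusted p under 0.01, Cgnl1; the fall of Cgnl1 kept its call in every setting run. Correlations of same-numbered deviations ranged from -0.032 to -0.011. They gave no sign that the replicate numbers pair the arrays, but cannot exclude it. With the replicate block, Tjp1 kept a value of -0.26 and lost its call (limma adjusted p = 0.055), the claudin counts were 1 fall and 1 rise, and the polarity falls were 2. At 0.01 the claudin counts were also 1 and 1, and the polarity falls 2. Leaving out single arrays gave 1 to 2 claudin falls, 1 to 2 claudin rises and 2 to 4 polarity falls. The polarity rises were 2 in the main setting and 3 with an intensity trend, with array weights and without control replicate 1. Rises of the transcription factors were 5, against 4 in the main setting, with an intensity trend and without the dimmest genes. Their falls were 2, against 3, without any 1 of the controls and at 0.01. With an intensity trend the claudin rises were 1, and the scaffold list had 2 falls and 1 rise. Without the dimmest genes the scaffold rises were 1 and the rises of membrane partners 2, as also with the brightest probe set, in both cases by adding Clmp, the only listed gene with 2 probe sets. Of the 9, Tjp3, Ocln, Marveld3 and Crb3, which did not pass, changed sign in some settings, and Marveld2 did not in the 12 settings that gave it a value (0.01 to 0.09). With median centring, Tjp3 and Ocln were -0.02 and Crb3 -0.03, and after a second quantile normalisation Crb3 was -0.02. Leaving out single arrays gave -0.02 to 0.06 for Tjp3, -0.04 to 0.04 for Ocln, -0.02 to 0.11 for Marveld3, -0.03 to 0.04 for Crb3 and -0.08 to 0.10 for Marveld2 minus Marveld3. The pairs were run under the scalings, the brightest probe set and the left-out arrays; the other alternatives do not apply to a permutation. The causes were not tested. With 3 arrays a group, falls near 0.3 sit at the edge of what passes.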
